A study of Homo sapiens with 6 samples.

Results

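The D-type cyclins *CCND1*, *CCND2* and *CCND3* and their partner kinases *CDK4* and *CDK6* were followed in TPC-1 cells with and without *RRM2* overexpression. These 5 genes were taken by name from an expression table of 58735 genes. TPC-1 is an established human papillary thyroid carcinoma line. The 6 libraries fell into 2 groups of 3: wild strain TPC-1, and *RRM2*-OE-TPC-1, in which a lentiviral LV18 vector carried full-length *RRM2* under a CMV promoter and infected cells were selected with puromycin. The control cells were not infected, and no empty-vector library was analysed here, so the transgene cannot be told apart from infection and selection. The genotype labels of *RRM2*-OE-TPC-1 libraries 2 and 3 read RRM3 and RRM4, while their titles read RRM2. Whether ribosomal RNA was depleted or poly(A) RNA selected is given differently by the labels and the methods. Libraries were described as biological triplicates, with no label saying whether each came from a separate culture, and p-values measure only the spread between these libraries.

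D-type cyclins are the regulatory subunits of CDK4 and CDK6, and they link mitogen signals to the cell cycle. The active complexes phosphorylate the retinoblastoma protein in G1, which frees E2F transcription factors to turn on genes for DNA replication. INK4 proteins bind the kinases and keep the cyclins off, whereas CIP/KIP proteins bind the assembled complexes. Cyclin D1 protein is short-lived and its degradation is regulated, so it need not follow the mRNA, and protein was not measured in these files. In separate Western blots, the study reported more cyclin D1 protein in *RRM2*-OE-TPC-1 than in control cells.

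Values are FPKM, reads per kilobase of gene exons, scaled to a depth set for each library. For these cyclin and kinase genes the length was that of all annotated exons joined, not of the transcripts expressed. Levels, shares and ratios between genes carry this limit. Each library held 14317091 to 17084067 reads on genes, recovered from the FPKM values, and mitochondrial genes took 4.29% to 5.89% of them. The depth behind the FPKM was 1.03 to 1.05 times these reads in TPC-1 and 0.997 to 1.01 times in *RRM2*-OE-TPC-1. *RRM2*, the small subunit of ribonucleotide reductase, was 9.17, 9.05 and 8.52 FPKM in TPC-1 and 50.4, 47.5 and 47.2 FPKM in *RRM2*-OE-TPC-1, a log2 fold change of 2.43 (SE 0.0442, limma adjusted p = 1.11e-08). Reads from the transgene and from the native gene are counted together in this value. The labels describe thyroid tissue. Of the thyroid markers, *PAX8* averaged 69.3 and 58.5 FPKM in the wild strain and the overexpressing cells and *FOXE1* averaged 4.30 and 3.19, whereas *NKX2-1* had 0 reads in every library and *TG*, *TSHR* and *SLC5A5* were each under 0.1 FPKM on average.

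Differences between the groups were tested with limma on log2(FPKM + 0.1), and p-values were adjusted over all 13621 genes that had at least 0.5 FPKM and 10 reads in 3 or more libraries. A gene is said to have risen or fallen where the adjusted p was at most 0.05, and to be called when its log2 fold change was also at least 1 in size. Of the 5 genes, 4 were tested and *CCND2* was not. All 4 rose, and their groups did not overlap. Both are common in this table. Of all tested genes 67.6% passed on the adjusted p (34.9% upward and 32.7% downward), and 72.2% had groups that did not overlap (37.3% higher and 35% lower). *CCND1* and *CDK6* were called, where 11.5% of tested genes were called in either direction, 4.48% higher and 6.97% lower. In bulk libraries, a change in the share of cells at one stage of the cycle and a change in RNA per cell cannot be told apart. In separate flow cytometry, the study reported a larger share of *RRM2*-OE-TPC-1 cells in S phase and a smaller share in the phases before it. The part of that shift in these mRNA levels was not tested.

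**Figure D1:**
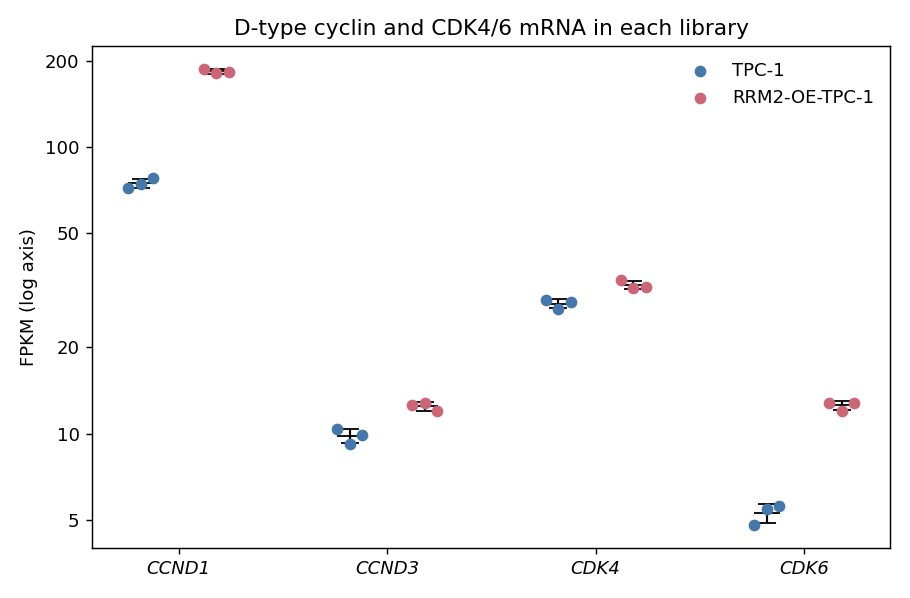
FPKM of the 4 tested genes in each library on a log axis, with the mean (bar) and SD (whiskers) of 3 libraries per group. The TPC-1 libraries of *CCND1* sit between 72.0 and 77.8 FPKM and the *RRM2*-OE-TPC-1 libraries between 180.4 and 187, and *CDK6* moves from 4.82 to 5.59 up to 12.0 to 12.8.

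*CCND1* (ENSG00000110092, chr11:69641087-69654474 on GRCh38, plus strand) encodes cyclin D1, the D-type cyclin that acts downstream of RAS and MAPK signaling in many epithelial tumors. Its level was 72.0, 74.0 and 77.8 FPKM in the TPC-1 libraries and 187, 180.4 and 182 in the *RRM2*-OE-TPC-1 libraries. Every *RRM2*-OE-TPC-1 library was therefore above every TPC-1 library, and the spread within each group was small. The group means were 74.6 ± 2.93 and 183.1 ± 3.62 FPKM (mean ± SD, n = 3 each). The log2 fold change was 1.29 (SE 0.0381, 95% interval 1.21 to 1.38), or 2.45-fold, with a limma adjusted p of 9.87e-08. These means rest on 5807 to 6008 reads per TPC-1 library and 13071 to 14924 per *RRM2*-OE-TPC-1 library. *CCND1* was above 97.2% of tested genes in level in TPC-1 and above 99.0% in *RRM2*-OE-TPC-1. Its log2 fold change was above that of 97.8% of all tested genes, those with a lower level included.

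*CCND3* (ENSG00000112576, chr6:41934933-42050357, minus strand) encodes cyclin D3, the member best known from lymphoid cells. It was 10.4, 9.25 and 9.95 FPKM in TPC-1 and 12.6, 12.8 and 12.0 FPKM in *RRM2*-OE-TPC-1. Its groups did not overlap, with means of 9.86 ± 0.563 and 12.5 ± 0.428 FPKM. The log2 fold change was 0.34 (SE 0.0539, 95% interval 0.21 to 0.46, limma adjusted p = 7.04e-04), a 1.26-fold rise under the size threshold. *CCND2* (ENSG00000118971, chr12:4273772-4305350, plus strand), which encodes cyclin D2, had 0 reads in all 6 libraries. With 3 reads as the limit that a count of 0 allows, the level could be up to 0.0245 to 0.0290 FPKM per library, so a difference was not detectable at this depth. The limit covers counting error only. The overlapping *CCND2-AS1* and AC008012.1 also had 0 reads.

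*CDK6* (ENSG00000105810, chr7:92604921-92836594, minus strand), which encodes a kinase closely related to CDK4, was 4.82, 5.46 and 5.59 FPKM in TPC-1 and 12.8, 12.0 and 12.8 FPKM in *RRM2*-OE-TPC-1, with no overlap. Its means were 5.29 ± 0.414 and 12.6 ± 0.461 FPKM. The log2 fold change was 1.23 (SE 0.0658, 95% interval 1.08 to 1.39, limma adjusted p = 1.60e-06), or 2.35-fold. This log2 fold change was above that of 97.4% of all tested genes, those with a lower level included. In level, *CDK6* was above 49.2% of tested genes in TPC-1 and above 73.6% in *RRM2*-OE-TPC-1. *CDK4* (ENSG00000135446, chr12:57747727-57756013, minus strand), which encodes the kinase that is the usual partner of cyclin D1, was 29.2, 27.3 and 28.7 FPKM in TPC-1 and 34.2, 32.3 and 32.5 FPKM in *RRM2*-OE-TPC-1. Its groups did not overlap, and the rise from 28.4 ± 1.03 to 33.0 ± 1.08 FPKM was a log2 fold change of 0.22 (SE 0.0410, 95% interval 0.12 to 0.31, limma adjusted p = 0.00184), or 1.16-fold.

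**Figure D2:**
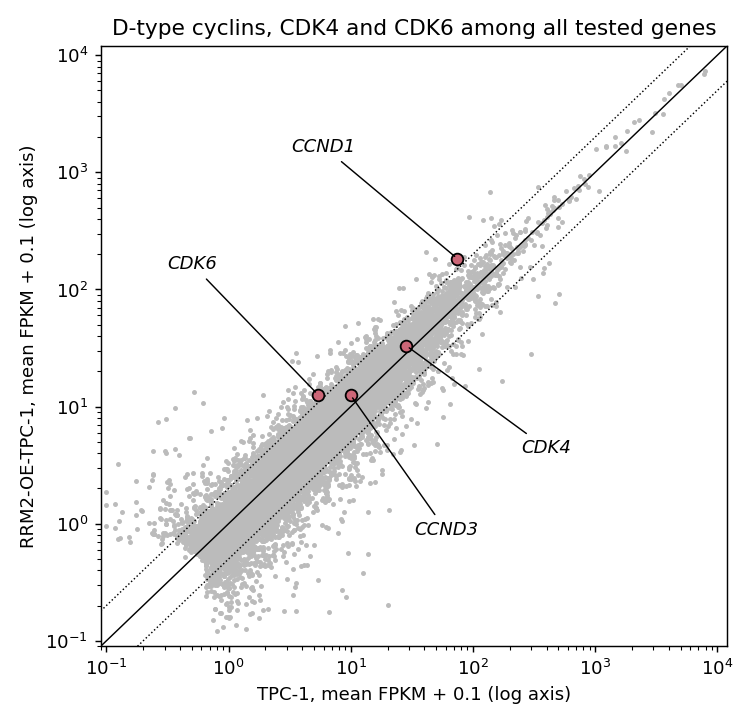
Mean FPKM + 0.1 of each of the 13621 tested genes in TPC-1 (x, log axis) and *RRM2*-OE-TPC-1 (y, log axis), with the line of equality and dotted lines at log2 fold changes of 1 and -1. *CCND1* and *CDK6* lie beyond the upper dotted line, whereas *CCND3* and *CDK4* lie close to equality.

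The order of levels was *CCND1*, *CDK4*, *CCND3* and *CDK6* in each TPC-1 library, with no overlap between neighbours. In *RRM2*-OE-TPC-1 *CCND3* and *CDK6* overlapped, at 12.0 to 12.8 FPKM each, and the others kept their places. *CCND1* made up 87.4%, 88.9% and 88.7% of the summed D-type cyclin FPKM in TPC-1 and 93.7%, 93.4% and 93.8% in *RRM2*-OE-TPC-1. *CDK6* made up 14.1%, 16.7% and 16.3% of the summed *CDK4* and *CDK6* FPKM in TPC-1 and 27.3%, 27.2% and 28.3% in *RRM2*-OE-TPC-1. Neither share overlapped between the groups.

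Ratios within each library compared the changes of the 2 cyclins and of the 2 kinases. The ratio of *CCND1* to *CCND3* went from 7.57 to 14.7, and the ratio of *CDK6* to *CDK4* went from 0.186 to 0.381. The log2 ratios differed by 0.96 and 1.03 between the groups. An exact two-sided permutation test gave p = 0.1 for each of these 2 ratios and for each of the 2 shares, which is the smallest p that 3 against 3 libraries can give. The summed D-type cyclin level went from 84.5 ± 2.88 to 195.6 ± 3.66 FPKM, while summed *CDK4* and *CDK6* went from 33.7 ± 0.866 to 45.6 ± 1.41. D-type cyclin FPKM per FPKM of the 2 kinases was 2.51 ± 0.0755 in the control and 4.29 ± 0.0611 in the overexpressing cells.

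**Figure D3:**
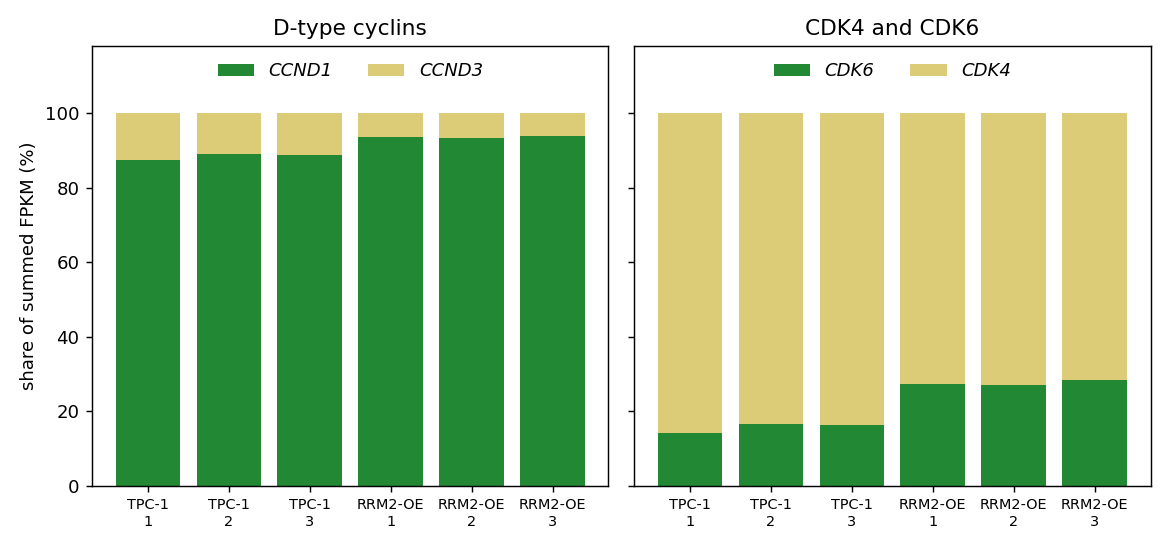
Share of summed FPKM in each library (percent), for the D-type cyclins on the left and for the 2 kinases on the right. *CDK6* takes 14.1% to 16.7% of the kinase FPKM in TPC-1 and 27.2% to 28.3% in *RRM2*-OE-TPC-1. *CCND2*, at 0 reads, is not drawn.

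RefSeq windows on GRCh38.p14 from 250 bases before to 50 after a start gave 6 windows for 3 of the 5 genes. They were searched for the E-box CACGTG, which MYC and related factors bind and which reads the same on both strands, for the GC box GGGCGG, and for the E2F site TTTCGCGC or TTTGGCGC, the AP-1 site TGACTCA and the CRE TGACGTCA, on both strands. The *CDK4* window holds 3 E-boxes, and the shown *CDK6* window holds 1. E-boxes are in capitals:
CDK4, chr12:57752261-57752560, minus strand: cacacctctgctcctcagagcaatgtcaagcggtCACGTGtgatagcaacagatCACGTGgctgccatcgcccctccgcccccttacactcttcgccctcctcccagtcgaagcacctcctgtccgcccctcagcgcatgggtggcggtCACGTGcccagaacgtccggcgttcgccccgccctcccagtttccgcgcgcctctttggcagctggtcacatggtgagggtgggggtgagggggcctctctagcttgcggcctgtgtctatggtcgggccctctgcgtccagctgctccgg
CDK6, chr7:92836524-92836823, minus strand: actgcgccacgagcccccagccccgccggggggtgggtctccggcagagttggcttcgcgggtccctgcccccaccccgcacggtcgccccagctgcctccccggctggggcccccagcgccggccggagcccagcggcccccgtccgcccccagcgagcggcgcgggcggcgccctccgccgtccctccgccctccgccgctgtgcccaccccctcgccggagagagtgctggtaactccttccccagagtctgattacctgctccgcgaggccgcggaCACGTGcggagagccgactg
The *CDK4* matches begin at -216, -196 and -101 from the start and the *CDK6* match at 30. Of 34796 such windows over all genes, 7.2% held an E-box and 0.092% held 3 or more. GC boxes stood in the *CDK4* window (3), the shown *CDK6* window (3) and *CCND3* windows (5 and 4), against 44.9% of all windows. None of the 6 windows held the E2F, AP-1 or CRE letters, which 1.14%, 4.96% and 1.84% of all windows held. A match is a description of letters only, and binding was not measured. *MYC* mRNA fell from 125 to 72.5 FPKM (log2 fold change -0.78, limma adjusted p = 8.92e-07). By Western blot, the study reported the opposite direction for c-MYC protein, which was higher in *RRM2*-OE-TPC-1. Any part of MYC at these E-boxes was not tested.

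The methods describe directional libraries, which keep the strand, but the deposited counting does not state whether strand was used. Where a gene overlaps another on the opposite strand, reads over the shared bases could be given to the wrong gene or left out of both. The level of *CDK4*, and the shares and ratios that use it, carry this limit, and its direction was not tested. *LTO1* shares 497 exon bases with *CCND1* (10.3% of its exons) and averaged 3.14 and 2.75 FPKM in the control and overexpressing groups. *TSPAN31* shares 1369 bases with *CDK4* (43.2%) and fell from 3.25 to 1.83 FPKM (log2 fold change -0.80), while *CDK4* rose. AC002454.1 shares 81 bases with *CDK6* and had 20 reads over all libraries.

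Inhibitors of the kinases moved apart from one another. Of 7 tested inhibitor genes, *CDKN1A* was called higher and 4 fell by less than the size threshold, where 4.48% of all tested genes were called higher and 32.7% fell. *CDKN1A*, which encodes the p53-induced CIP/KIP inhibitor p21, was 42.2, 39.7 and 41.6 FPKM in TPC-1 and 207.6, 203.1 and 212 in *RRM2*-OE-TPC-1 (log2 fold change 2.33, limma adjusted p = 9.81e-09). *CDKN1B*, which encodes p27, fell from 29.8 ± 0.639 to 17.95 ± 0.552 FPKM (log2 fold change -0.73). *CDKN2A*, whose locus gives p16INK4a and p14ARF that are counted together here, fell from 60.3 ± 4.00 to 42.8 ± 1.83 FPKM (-0.49), and *CDKN2B*, which encodes p15INK4b, from 9.21 ± 0.720 to 5.74 ± 0.185 FPKM (-0.67). *CDKN2D* also fell (-0.38), whereas *CDKN2C* (-0.14, limma adjusted p = 0.0654) and *CDKN1C* (-0.06, 0.761) did not pass. The median log2 fold change of the 7 was -0.38, against 0.011 over all tested genes. Summed CIP/KIP FPKM went from 72.4 ± 0.756 to 226.9 ± 3.75, and summed INK4 FPKM from 85.8 ± 5.14 to 62.6 ± 2.61.

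**Figure D4:**
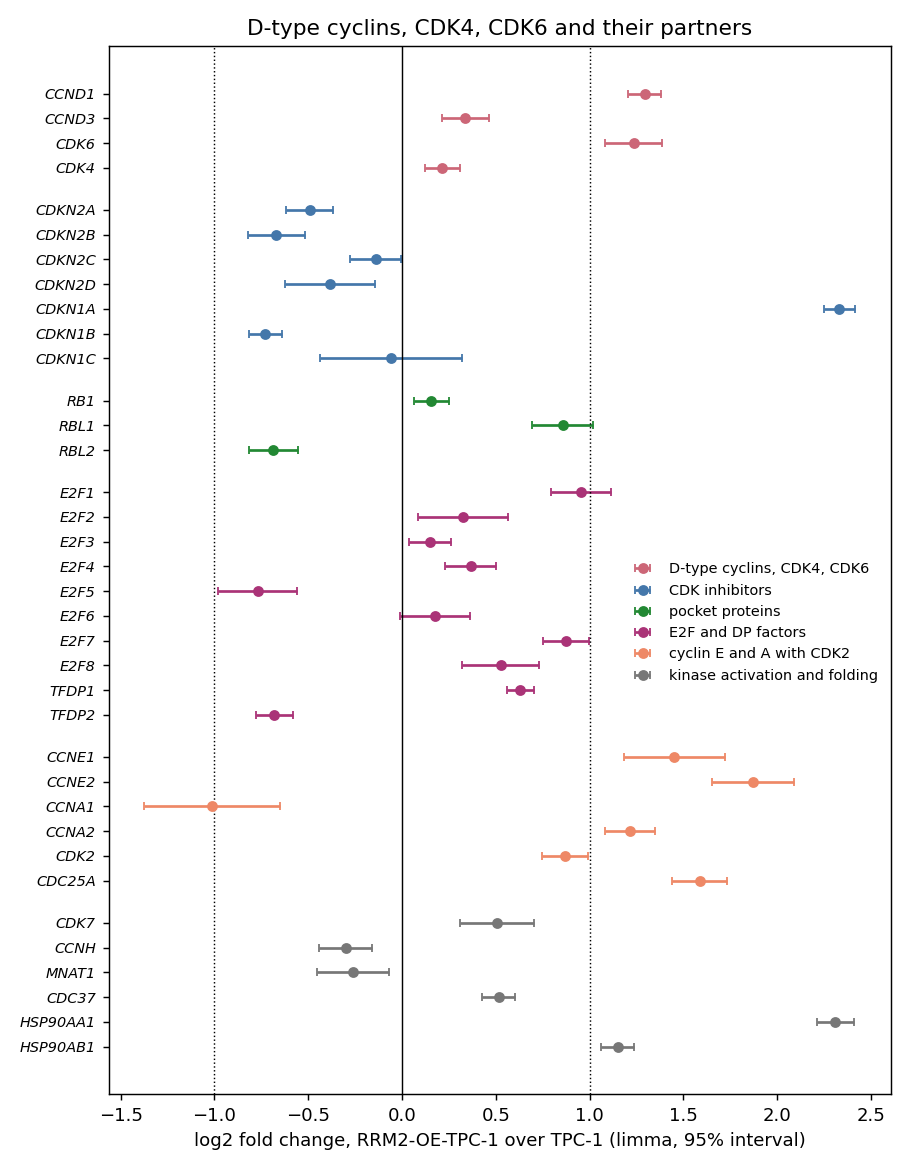
Log2 fold change of each tested gene, *RRM2*-OE-TPC-1 over TPC-1, with the 95% interval from limma, for the D-type cyclins, the kinases and 5 lists of partners. *CDKN1A* (2.33) and *HSP90AA1* (2.31) lie far right of *CCND1* (1.29) and *CDK6* (1.23), and the other CDK inhibitors lie left of 0.

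The pocket proteins, which the kinases phosphorylate, and the E2F and DP factors that pocket proteins hold had no called gene among 3 and 10 tested. Of all tested genes 11.5% were called, so few calls would be seen in lists this short in any case. *RB1* rose by 0.16 and *RBL1*, which encodes p107, by 0.86 on the log2 scale, and *RBL2*, which encodes p130, fell by 0.69 (median 0.16). Of the factors, 7 rose and 2 fell (median 0.35), where 34.9% of all tested genes rose and 32.7% fell. *E2F1* went from 9.89 to 19.2 FPKM (0.96), *TFDP1* was up by 0.63, *E2F5* down by 0.77 and *TFDP2* down by 0.68. Of the 6 genes that act after them, cyclins E and A, *CDK2* and *CDC25A*, a total of 4 were called higher and 1 lower, with a median of 1.33, against 4.48% called higher and 6.97% lower among all tested genes. *CCNE2*, which encodes cyclin E2, went from 1.48 to 5.67 FPKM (1.87), *CCNE1* from 1.17 to 3.38 (1.45), *CCNA2* from 15.3 to 35.5 (1.21) and *CDC25A*, a phosphatase that activates CDK2, from 3.31 to 10.1 (1.59). *CDK2* rose from 8.69 to 15.9 (0.87). *CCNA1*, at 1.24 and 0.566 FPKM, was called lower (-1.01), but at -0.99, -0.97 and -0.89 it was no longer called without TPC-1 library 1, TPC-1 library 2 or *RRM2*-OE-TPC-1 library 1.

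All 18 listed E2F targets rose, where 34.9% of tested genes did, with a median of 0.91. Of them 7 were called higher, where 4.48% of tested genes were. The list was chosen with earlier results of these data known. The called genes were *ORC1* (2.57 to 9.78 FPKM, log2 fold change 1.89) and *CDC6* (5.11 to 13.5, 1.38), which license origins, *PCNA* (34.1 to 121.7, 1.83), the sliding clamp of DNA polymerase, and *MCM4* (23.4 to 65.4, 1.48), a subunit of the replicative helicase. *RRM1* (16.02 to 40.1, 1.32), the large subunit of ribonucleotide reductase, *TYMS* (10.7 to 26.5, 1.30), which makes thymidylate, and *CDC45* (5.52 to 11.4, 1.03), a helicase cofactor, were also called. *CDC45* fell under the size threshold, to 0.98, when library totals were used for scaling. The smallest of the 18 changes was 0.44, for *POLA1*.

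Folding and assembly of CDK4 and CDK6 depend on HSP90 and its co-chaperone CDC37. Both HSP90 genes were called higher, where 4.48% of all tested genes were. *HSP90AA1* went from 137 to 681 FPKM (log2 fold change 2.31) and *HSP90AB1* from 338 to 751 (1.15), and *CDC37* rose from 59.0 to 84.3 (0.51). Of the 3 subunits of the CDK-activating kinase, *CDK7* rose (0.51) while *CCNH* (-0.30) and *MNAT1* (-0.26) fell. The list of 6 had a median of 0.51. In the list for cyclin D turnover and export, 10 of 12 genes were tested, with a median of 0.04. In that list 3 rose, 3 fell and 4 did not pass, where 34.9% of all tested genes rose and 32.7% fell. *SKP2*, an F-box protein, was its only called gene (5.52 to 15.7 FPKM, 1.49). *FBXO4*, which serves a ligase reported for cyclin D1, fell by 0.72 and *FBXW8* by 0.46, *GSK3B*, a kinase that marks cyclin D1 for export and degradation, fell by 0.26, and *XPO1*, the nuclear exporter, rose by 0.68. *AMBRA1*, an adaptor for degradation of all D-type cyclins, was 4.66 and 5.08 FPKM (0.12, limma adjusted p = 0.142).

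Of 26 transcription factors and coactivators known at the *CCND1* promoter, 25 were tested. Among these 7 rose, 14 fell and 4 did not pass, with a median of -0.15, where 34.9% of all tested genes rose and 32.7% fell. None was called higher, and 2 were called lower, where 6.97% of all tested genes were. *EGR1*, an immediate early gene, went from 9.52 ± 0.665 to 1.46 ± 0.467 FPKM (log2 fold change -2.67), and *JUND*, an AP-1 subunit, from 81.0 ± 8.11 to 32.8 ± 2.74 (-1.30). *ETS1* rose from 27.7 to 46.1 FPKM (0.73), *WWTR1*, which encodes TAZ, from 47.8 to 67.2 (0.49) and *JUN* from 51.0 to 65.5 (0.36), whereas *TCF7L2*, a Wnt effector, fell from 8.26 to 5.36 (-0.61). Over all of these pathway lists, 85 of 88 genes were tested, 15 were called higher and 3 lower, where 4.48% and 6.97% of all tested genes were. Of these 18 called genes 12 stand in the study's own cell-cycle table, as do *CCND1* and *CDK6*, and that table was chosen on these libraries, so it is not independent evidence of direction. *CCNE2*, *TYMS*, *CCNA2* and *HSP90AA1* share 37.1%, 39.2%, 9.08% and 3.75% of their exon bases with a gene on the opposite strand. For *CCNE2* that gene is *INTS8*, whose mean of 15.9 FPKM over all libraries was above *CCNE2* in both groups.

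**Figure D5:**
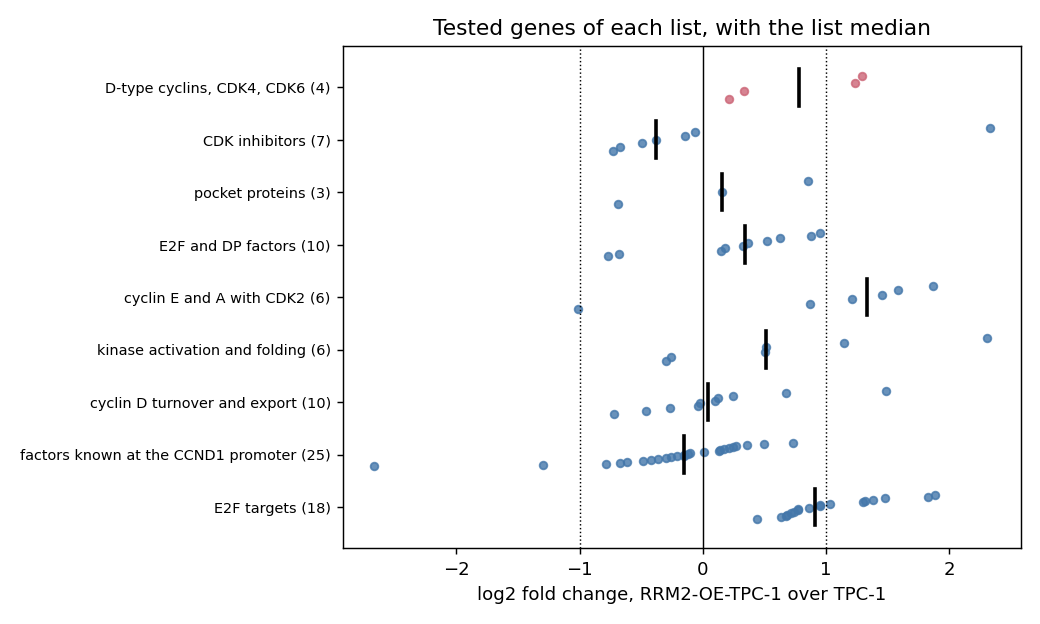
Log2 fold change of every tested gene in each list (points) with the list median (black bar), and the number tested in brackets. All 18 E2F targets lie right of 0, while factors known at the *CCND1* promoter spread from -2.67 to 0.73 around a median of -0.15.

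By likeness across the 6 libraries, taken as the root mean square distance of log2(FPKM + 0.1) centred on each gene's mean, the nearest of 11450 protein-coding genes to *CCND1* were *SF3A3* (0.0328), *PXDNL* (0.0482) and *CDC6* (0.0489), and *CDK6* ranked 10 (0.0561). The nearest to *CDK6* were *ZNF367* (0.0399), *FN3KRP* (0.0483) and *GLIPR1* (0.0510). *GLIPR1* shares 24.2% of its exon bases with *KRR1* on the opposite strand. *CCND3* lay at 0.484 from *CCND1*, at rank 2997, and *CDK4* at 0.542, at rank 3955. The nearest to *CCND3* were *B4GALT2* (0.0164), *NOC4L* (0.0232) and *AP5B1* (0.0259), and to *CDK4* they were *STOML2* (0.0178), *R3HCC1* (0.0179) and *GRSF1* (0.0181). With 2 groups of libraries, this distance is set mainly by the size of the group difference.

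Marker lists also differed between the groups. The summed thyroid epithelial list of 12 genes was 116.6 to 121 FPKM in TPC-1 and 150.2 to 154 in *RRM2*-OE-TPC-1, of which *KRT18* went from 41.2 to 85.2 (log2 fold change 1.05). *KRT18* was the only called gene of 5 tested, where 11.5% of all tested genes were called. It shares 16.3% of its exon bases with *KRT8* on the opposite strand. The sum was higher with *KRT18*, while *PAX8* (-0.24) and *FOXE1* (-0.42) fell, *KRT8* rose (0.43), and the median of the 5 tested genes was -0.21. The list of 10 blood, endothelial and muscle markers summed to 1.02 to 1.11 FPKM and 0.185 to 0.229, with *CD3E* and *HBA1* among those at 0 in every library. Its 1 tested gene, *PECAM1*, went from 0.924 to 0.0588 FPKM, a log2 fold change of -2.71 on the log2(FPKM + 0.1) scale. That scale understates the change because the 0.1 added is larger than the lower mean. *PECAM1* met the minimum for testing only through TPC-1, so the filter allowed only a lower level, and its call carries no weight. The part of these markers in the results was not tested.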

How the data were processed

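mRNA of 3 wild strain TPC-1 and 3 *RRM2*-OE-TPC-1 libraries was measured. Per the labels, reads were aligned with HISAT2 2.0.5, counted with featureCounts 1.5.0 on GRCh38.p14 and compared with DESeq2 1.20.0. The authors deposited FPKM, and other columns gave gene names, positions and lengths, which were those of GENCODE 29 for all 58735 identifiers, with 12 symbols restored. Depletion of ribosomal RNA with RNase R treatment stands in the labels and poly(A) selection in the methods, which could change which transcripts were captured. Whole reads were recovered from FPKM and gene length, within a tolerance of 0.001.

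Because FPKM are not counts, limma (3.58.1 in R 4.3.3; lmFit and eBayes with a trend) was run on log2(FPKM + 0.1), with Benjamini-Hochberg adjustment over 13621 genes, and checked on simulated data. Shares and ratios were compared by exact permutation tests (scipy 1.17.1). Python 3.11.15, numpy 2.4.6, pandas 2.3.3 and matplotlib 3.10.9 were used. The genes and lists were chosen with earlier results of these data known. Named are the 5 genes, *RRM2*, list genes past both thresholds, key partners, overlapping or nearest expressed genes, and the 3 most alike genes. Single values of some marker genes are not reported here. Alternatives were 2 other pseudocounts, no filter, other scalings, each library left out and a replicate block.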

Additional observations from a re-analysis of the deposited data

How the results depend on the processing

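The log2 fold changes of *CCND1*, *CCND3*, *CDK4* and *CDK6* kept their direction and their side of the thresholds in all 56 alternatives: 1.24 to 1.33, 0.28 to 0.37, 0.16 to 0.24 and 1.11 to 1.28, with highest limma adjusted p of 1.07e-05, 0.00390, 0.00924 and 4.34e-05. Over 22 log2 fold changes, 301 of 308 alternatives kept direction and side, and the exceptions were *CCNA1* and *CDC45*. The 2 gene counts stayed within 1.5 times in 27 of 30 alternatives. The 4 ratios and shares kept their direction in all 32, with a p that could not pass. With a pseudocount of 1, 716 genes were called (303 higher, 413 lower) against 1560 with 0.1, and *CCNA1* came to -0.52 and *CDC45* to 0.93. By adjusted p alone 9207 genes passed in the whole table and 74 in the pathway lists. With no filter 2281 of 30958 genes were called. Scaling by library totals shifted the median of all genes to -0.045 and the log2 fold change of *CDK4* from 0.22 to 0.16. Scaling by median of ratios left the FPKM of every library nearly unchanged. That alternative therefore could hardly differ from the main setting, and its agreement carries little weight. Limma's voom on the recovered reads, chosen after seeing the data, called 1794 genes and gave *CDC45* 0.99. Leaving out 1 library gave 1573 to 1608 genes. Libraries of the same replicate number shared no pattern of deviations from their group means, with correlations of -0.0105, -0.00603 and -0.0550. These values cannot show whether same-number libraries were handled together. A fit with the replicate block called 1566 genes, and *CCND1*, *CCND3*, *CDK4* and *CDK6* had limma adjusted p of 1.07e-05, 0.00311, 0.00320 and 4.34e-05 under it. The CDK6 share by reads, without length, rose by 17.7 percentage points against 11.9 by FPKM. By reads its mean went from 41.9% in TPC-1 to 59.6% in *RRM2*-OE-TPC-1, and by FPKM from 15.7% to 27.6%. In *RRM2*-OE-TPC-1 the larger share was therefore that of *CDK6* by reads and that of *CDK4* by FPKM. The planned negative binomial count tests were not run, since the deposited unit is FPKM. With 3 libraries per group exact tests cannot go below p = 0.1 (0.25 when paired), and 1 cell line and no empty-vector control limit what the groups stand for.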

Other observations

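Genes beside the 4 tested loci and *CCND2* were compared too, and values in brackets are log2 fold changes. Next to *CCND1*, *FADD*, 548689 bases to the right, went from 9.79 to 12.3 FPKM (0.32, limma adjusted p = 0.00561). *TIGAR*, 2413 bases from the silent *CCND2*, went from 0.373 to 0.938 FPKM (1.14, limma adjusted p = 3.60e-04). In the wild strain *TIGAR* averaged under the 0.5 FPKM minimum for testing, which it met only through the overexpressing cells. The filter therefore allowed only a higher level for *TIGAR*, and its p carries no weight. *BYSL*, 1887 bases from *CCND3*, went from 17.2 to 24.2 FPKM (0.49, limma adjusted p = 9.52e-05), and *TAF8*, 156 bases away on the other side, fell from 3.64 to 2.86 (-0.34). *PARP11*, on the other side of *CCND2*, fell from 0.952 to 0.696 (-0.40, limma adjusted p = 0.0277), and AP005233.2, left of *CCND1*, was at 1.48 and 1.40 (-0.10, limma adjusted p = 0.838). Beside *CDK4*, *OS9* fell from 30.5 to 27.2 FPKM (-0.17, limma adjusted p = 0.00950), *CYP27B1* was at 1.44 and 1.77 (0.28, limma adjusted p = 0.114), and *MARCH9*, which overlaps the gene but shares no exon base, fell from 4.70 to 2.84 (-0.70, limma adjusted p = 2.56e-04). *SAMD9*, 262919 bases from *CDK6*, went from 2.66 to 5.28 FPKM (0.96, limma adjusted p = 3.38e-05), while *FAM133B*, on its other side, was at 2.81 and 2.76 (limma adjusted p = 0.905).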
